A study of Mus musculus with 12 samples.

Results

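Mouse small-intestinal organoids that had been co-cultured with regulatory T (Treg) cells while interferon γ (IFNγ) and the IL-10 receptor were both blocked were compared with control organoids by single-cell RNA sequencing. Cells were taken from 5 droplet libraries (B1 to B5) by their hashtag, an antibody-bound barcode that marks the culture of origin, and 3794 of the 11911 cells that passed all filters belonged to the comparison, 2020 from the co-culture with both antibodies (hashtag Treg_aIFNg_aIL10R) and 1774 from the control (hashtag Ctrl). Libraries B1 and B2 formed replicate 1, B3 and B4 replicate 2, and B5 replicate 3, which gave 596, 833 and 345 control cells and 746, 864 and 410 co-culture cells. The comparison asks which epithelial responses to Treg cells remain when neither cytokine can act.

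All organoids were grown from wild-type BALB/c crypts, about 200 per drop, in medium with EGF, Noggin and R-spondin, and were sampled after 4 days. The co-culture received 100000 allogeneic CD25high FoxP3-GFP+ Treg cells per well with IL-2 at 30 U/ml and 2 µl of CD3/CD28 beads, together with anti-IFNγ and anti-IL-10R antibodies at 10 µg/ml each from the start. Plates were tilted so that organoids and T cells shared medium but did not touch, and the T cells were removed before live EpCAM+ cells were sorted, so the data describe the epithelium only and signals that travel through the medium. Whether control wells held IL-2, beads or an isotype antibody was not given in the sources used here, so effects of these additions and of the Treg cells cannot be told apart. The other groups were Treg cells without antibody (Treg, 2097 cells), with anti-IFNγ (Treg_aIFNg, 2120) or anti-IL-10R alone (Treg_aIL10R, 2091), and organoids given recombinant IFNγ at 0.25 ng/ml plus IL-10 at 10 ng/ml without T cells (IFNg_IL10, 1809). They share the control samples with the present comparison.

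IFNγ binds its receptor on epithelial cells and acts through JAK kinases, a signal that reaches gamma-activated sites in DNA, switches on Irf1 and raises the immunoproteasome, peptide loading and, through Ciita, MHC class II. IL-10 signals through its own receptor and Stat3. Activated T cells also release other factors, among them some that act through NF-κB, whose targets include its own inhibitor Nfkbia and the chemokines Ccl20 and Cxcl1. The epithelium renews from stem cells at the crypt base, whose transit-amplifying daughters become absorptive enterocytes or secretory goblet, Paneth and endocrine cells.

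The hashtag sequences decided which cells entered the comparison. The 15-base barcodes of both groups, as deposited, are printed with capitals at the 11 positions where they differ.
Ctrl: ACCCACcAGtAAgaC
Treg_aIFNg_aIL10R: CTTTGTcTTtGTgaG

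Promoter windows of genes on which the results turn are shown next, each of at most 30 bases from RefSeq sequence of build GRCm38.p6, with the matched motif in capitals. Irf1 (chr11:53769914-53769942, plus strand) carries a gamma-activated site, TTCNNNGAA, and Ctss (chr3:95526755-95526784, plus strand) an interferon-stimulated response element, searched as GAAA, 2 free bases and GAAA. Nfkbia (chr12:55492657-55492686, minus strand), Ccl20 (chr1:83116675-83116704, plus strand) and Cxcl1 (chr5:90891164-90891193, plus strand) carry a κB-like match, searched as GGGA, 4 free bases and CC.
Irf1: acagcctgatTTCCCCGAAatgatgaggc
Ctss: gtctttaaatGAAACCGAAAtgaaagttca
Nfkbia: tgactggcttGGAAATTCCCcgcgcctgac
Ccl20: taatcaatggGGGAAAACCCcgggtgagaa
Cxcl1: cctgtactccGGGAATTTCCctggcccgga
Both strands were searched from 250 bases before to 50 bases after each gene's start. Of the 15002 genes tested in all cells, 11201 had a promoter in the RefSeq table, and 8.35% of these held the gamma-activated site, 3.71% the response element and 29.7% the κB-like letters. Such a match describes the sequence and is not a measured binding site.

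The epithelial identity of the cells was checked first. Summed counts were divided by the UMIs of the sum and scaled to CPM (counts per 1e+06 UMIs). For gene levels in the test results below, these totals were adjusted by edgeR's normalization factors. The T cell list was divided by unadjusted totals. Epcam, the adhesion molecule used for sorting, stood at 1730 to 1840 CPM in control and 1660 to 1820 CPM in co-culture sums. Vil1, a microvillus protein, lay at 90.7 to 136 and 92.7 to 131 CPM. T cell genes were near 0: Cd3d, Cd3e and Trbc2 had no UMI in either group, and the 24 genes of a T cell list summed to 4.69, 5.66 and 5.57 CPM in control and 4.32, 5.88 and 5.61 CPM in co-culture sums. Median UMIs per cell were 48423, 42441 and 43651 in control and 45017, 42289.5 and 45974.5 in co-culture cells, and 50.8% and 52.0% of the barcodes with the respective hashtag passed the filters. The libraries held 128917456 to 223155304 gene UMIs, and library pairs shared 9 to 24 cell barcodes.

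Across all cells, no gene passed the test between the both-antibody co-culture and the control. Of 15002 genes tested with edgeR's quasi-likelihood test and Benjamini-Hochberg adjustment at 0.05, 0 were higher (0.0%) and 0 were lower (0.0%). At an unadjusted p under 0.05, 251 genes were higher and 189 lower, together 2.93% of those tested, and DESeq2 called 1 gene, Nfkbia, as higher and 0 as lower. In these sums, fewer cells of a type and less RNA per cell cannot be told apart.

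The precision of this comparison rested on 3 experiments per group. The p-values measure the spread that remained in a fit of all 6 groups after differences between replicates were removed. The spread within the other groups therefore also enters them. Among the 7813 genes with at least 10 CPM in control, the 95% interval of the fold change lay within 1.5-fold in either direction for 98.3%. Over all 15002 genes this held for 70.0%, and 82.7% lay within 2-fold. Groups did not overlap for 263 genes on the higher side (1.75%) and 193 on the lower side (1.29%).

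**Figure D1:**
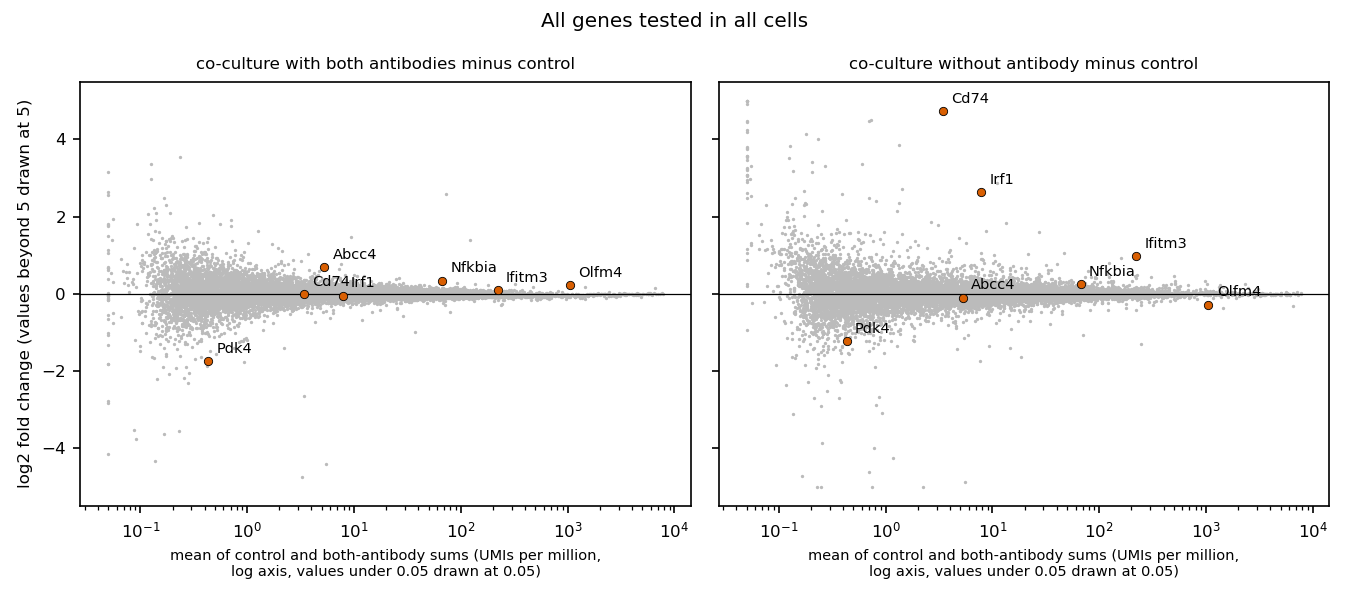
Each grey point is a gene tested in all cells, plotted by its mean level over the control and both-antibody sums in CPM (log axis, horizontal) and its log2 fold change (vertical) for both antibodies minus control on the left and Treg cells alone minus the same control on the right, with 7 genes of the text marked. On the left none of the 15002 genes passed the adjusted threshold and Irf1 lies at -0.05, whereas on the right Irf1 and Cd74 lie well above 0.

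Against the same control, the other groups gave other counts. Recombinant IFNγ plus IL-10 changed 2746 genes upward (18.3%) and 2626 downward (17.5%), Treg cells without antibody raised 14 genes (0.0933%) and lowered 0, and anti-IL-10R alone left 53 higher (0.353%) and 3 lower (0.02%). With anti-IFNγ alone, edgeR again called 0 higher and 0 lower genes (0.0% each), with 118 and 133 at an unadjusted p under 0.05.

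Interferon target genes lay close to control levels when both antibodies were present. Irf1, a transcription factor induced by interferons, was at 9.05, 6.73 and 8.04 CPM in control and at 8.05, 6.62 and 8.47 CPM in the both-antibody sums. With Treg cells alone it was at 38.2, 65.6 and 42.5 CPM. The both-antibody and control values overlapped, and every value with Treg cells alone was higher. The log2 change of Irf1 against control was -0.05 ± 0.35 (SE, n = 3), with a 95% interval of -0.83 to 0.72 that narrowed to -0.25 to 0.14 when only these groups were fitted. Irf1 was 6.41-fold lower than with Treg cells alone (edgeR, adjusted p = 0.0115).

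Cd74, the invariant chain, was at 1.65, 5.09 and 3.64 CPM in control, 1.71, 4.93 and 3.48 CPM with both antibodies, and 11.9, 283 and 69.8 CPM with Treg cells alone. H2-Aa, a class II alpha chain, was at 0.508, 1.04 and 0.412 CPM in control, 0.5, 0.868 and 0.897 CPM with both antibodies, and 2.6, 45.3 and 7.43 CPM with Treg cells alone. For both genes the control and both-antibody values overlapped in a narrow band below every value with Treg cells alone. Against control the intervals from the fit of these groups only were -0.33 to 0.28 for Cd74 and -0.59 to 0.79 for H2-Aa. Gbp2, an interferon-induced GTPase, had 0 UMIs in control and 1 with both antibodies, too few for a fold change.

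The lists of interferon core and antigen presentation genes held 70 genes, 63 of which were tested. Of these, 59 had been raised by recombinant IFNγ plus IL-10, with a median log2 change of 4.06, which marks them as able to respond in these organoids. For these 59 genes the median change against the shared control was 1.18 with Treg cells alone, 1.5 with anti-IL-10R alone, -0.048 with anti-IFNγ alone and -0.033 with both antibodies. Of the 59, 20 passed the low-count filter only through sums of other groups, where interferon genes are high, and had few UMIs in the groups compared here. On the control and both-antibody sums alone 39 passed it. In that fit 13 of the 39 were higher with both antibodies, 0 were called (2 at an unadjusted edgeR p under 0.05), the median log2 change was -0.032, single values ran from -0.63 to 0.25, and for 37 the interval's upper bound stayed under a 2-fold rise. By list, 9 of 22 interferon core genes that could be tested on these groups alone were higher (median -0.008) and 6 of 20 antigen presentation genes (median -0.034), beside -0.003 over all genes. Among the 63 genes, 47 had a promoter in the table, of which 42.6% held the response element and 25.5% the gamma-activated site.

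**Figure D2:**
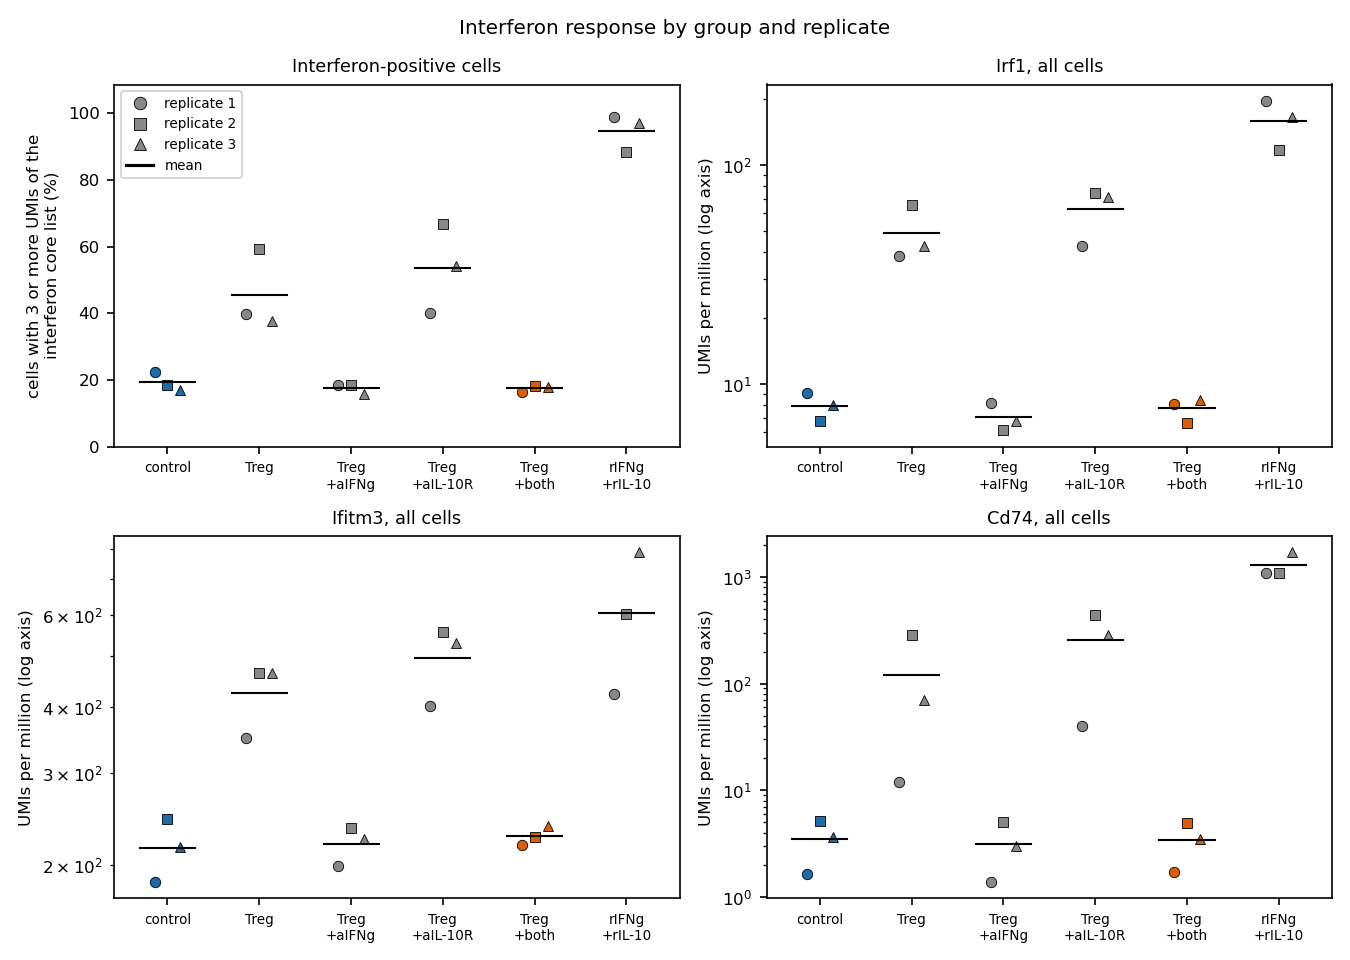
The first panel plots the share of interferon-positive cells after thinning in percent, and the others plot Irf1, Ifitm3 and Cd74 in CPM (log axes) for each culture, with a point for each of the 3 replicates and a bar at their mean. Irf1 lies at 6.62 to 8.47 CPM with both antibodies and 6.73 to 9.05 CPM in control, and at 38.2 to 65.6 CPM with Treg cells alone.

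Compared directly with Treg cells alone, the both-antibody co-culture had 20 genes lower (0.133%) and 0 higher (0.0%) of 15002 by edgeR, with 632 higher at an unadjusted p under 0.05. They were Nmi, Erap1, Psme1, Gm12216, Irf1, Tnfaip8l3, Ctss, Irf9, Psme2, Ifitm3, Ldb3, Tlr3, Gm13203, Nubp1, Tapbp, Shfl, Casp12, Psmb10, Casp1 and Adgrd1, and 7 of them belong to the interferon and antigen presentation lists. Of these genes 13 were also higher with Treg cells alone than in control, a comparison that shares its Treg samples. Their median log2 change against control was 0.96 with Treg cells alone and -0.05 with both antibodies. The 20 genes were picked as lower than with Treg cells alone, so these medians are not separate support. Against control 1 of the 20, Casp12, reached an unadjusted p under 0.05 by edgeR (log2 change 1.13, from 7 and 19 UMIs). The count depended on the replicates, with 0 genes called without replicate 3, 4 without replicate 2, and 97 lower and 59 higher without replicate 1. Promoters were in the table for 17 of the 20, and 29.4% of these held the response element and 23.5% the gamma-activated site.

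The members of this set fall into a few roles. Psme1 and Psme2 form the proteasome activator that widens peptide supply, and Psmb10 is an immunoproteasome subunit. Psme1 was at 158, 159 and 177 CPM in control, 148, 155 and 168 CPM with both antibodies, and 264, 383 and 303 CPM with Treg cells alone, 2.01-fold lower with the antibodies (edgeR, adjusted p = 0.0115). Psmb10 read 39.6, 48.1 and 59.3 CPM in control, 35.6, 45.2 and 53 CPM with both antibodies, and 66.4, 133 and 108 CPM with Treg cells alone. In both genes the both-antibody value lay slightly below control in each replicate, while every Treg value stood above both groups. Both were picked as lower than with Treg cells alone, so the place of the Treg values is not separate support. Tapbp (tapasin, which loads peptides onto MHC class I) and Erap1 (which trims them) were 1.79-fold and 1.42-fold lower than with Treg cells alone. Their log2 changes against control were -0.06 ± 0.14 and -0.03 ± 0.07 (SE, n = 3).

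Ctss, the protease that processes the invariant chain, was at 15.8, 13.4 and 16.2 CPM in control, 14, 14.6 and 13.7 CPM with both antibodies, and 20.6, 25 and 24 CPM with Treg cells alone. Irf9, the DNA-binding part of the factor that reads the response element, was at 4.35, 3.04 and 4.19 CPM in control, 4.92, 3.99 and 2.92 CPM with both antibodies, and 7.94, 7.8 and 8.6 CPM with Treg cells alone. Control and both-antibody values interleaved for both genes, and with Treg cells alone each was above them in every replicate. All genes of this set were picked by the comparison with Treg cells alone, so the higher Treg values are not separate support. Ifitm3, a membrane protein that restricts viruses, was at 186, 245 and 217 CPM in control, 219, 226 and 238 CPM with both antibodies, and 350, 464 and 464 CPM with Treg cells alone, 1.85-fold lower with the antibodies. Nmi, an interferon-inducible protein, Tlr3, a sensor of double-stranded RNA, and the inflammatory protease Casp1 were 1.47-fold, 1.58-fold and 1.33-fold lower. Their log2 changes against control lay between -0.1 and 0.04.

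Interferon-positive cells were counted as cells with at least 3 UMIs of the interferon core list after each cell had been thinned to 10000 UMIs. They made up 22.5%, 18.4% and 17.1% of control cells (19.3% ± 2.81, SD, n = 3) and 16.4%, 18.3% and 18.0% of both-antibody cells (17.6% ± 1.05). The groups overlapped, and the differences within replicates were -6.13, -0.0803 and 0.947 percentage points (exact two-sided sign-flip permutation test, p = 0.75, where the smallest possible is 0.25). With Treg cells alone the shares were 39.7%, 59.4% and 37.6%, above both groups in every replicate, with differences of -23.4, -41.1 and -19.6 points for both antibodies minus Treg cells alone (p = 0.25 in the same exact test and 0.1 unpaired, each the smallest it can give). Before thinning, the shares were 92.1%, 88.0% and 85.8% in control and 88.3%, 88.1% and 87.8% with both antibodies. At the upper end, 3 of 1774 control cells (0.169%) and 3 of 2020 both-antibody cells (0.149%) kept 10 or more such UMIs, against 50 cells (2.38%) with Treg cells alone and 1016 (56.2%) with the recombinant cytokines. By class, the shares were 14.8%, 18.2% and 12.8% in ISC-like control cells and 14.9%, 18.3% and 18.8% with both antibodies, and 20.5%, 15.9% and 15.9% against 16.1%, 15.3% and 15.8% in TA-like cells. EP/enterocyte-like cells had 37%, 29% and 27.5% in control against 23.1%, 29.4% and 30.4%, and secretory-like cells 36.4%, 42.3% and 20% against 18.2%, 28.9% and 38.5%, with differences in both directions. In the small cluster led by Areg and S100a6, described with the other classes, they were 27%, 16.4% and 21.7% in control and 9.3%, 8.8% and 0% with both antibodies, which did not overlap, where the last value is 0 of 17 cells and allows a share of up to 17.6%. Median summed levels of the core list were 138.6, 132.3 and 126.1 CPM per cell in control, 134.3, 133.6 and 135.3 CPM with both antibodies, and 207.5, 305.2 and 210.2 CPM with Treg cells alone.

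The gene with the smallest p in all cells belongs to NF-κB signaling. Nfkbia, the inhibitor that NF-κB induces to limit itself, was at 58.5, 55.8 and 64.0 CPM in control and at 78.2, 72.2 and 73.8 CPM with both antibodies, from 4811 and 6949 UMIs. Every both-antibody value exceeded every control value. The log2 change was 0.34 ± 0.06 (SE, n = 3; 95% interval 0.2 to 0.47), with an edgeR p of 7.03e-05 that became 1 after adjustment. It passed the threshold with libraries as separate sums (edgeR, adjusted p = 0.02), a fit that counts both libraries of replicates 1 and 2 separately and so has more sums than independent experiments, and in DESeq2 (adjusted p = 0.0255), and over all alternatives the adjusted p ran from 0.02 to 1. With Treg cells alone Nfkbia stood at 69.9, 65.7 and 75.3 CPM, and both antibodies minus Treg cells alone gave a log2 change of 0.1 ± 0.06. Cells with a UMI of Nfkbia were 79.5%, 78.8% and 82.0% in control and 85.1%, 81.8% and 81.7% with both antibodies, so detection overlapped while the summed level did not.

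Of 25 genes listed as targets of NF-κB and IL-17, 20 were tested, and 16 of these were higher with both antibodies, 6 of them in 3 of 3 replicates, where 13.6% of all genes were. The median log2 change was 0.155, beside -0.002 over all genes, and 0 passed the adjusted threshold. With Treg cells alone the median of this list against the shared control was 0.01. Cxcl1, a neutrophil chemokine, was at 1.05, 0.411 and 0.481 CPM in control and 1.42, 1.22 and 0.897 CPM with both antibodies (log2 change 0.95 ± 0.35, not past the adjusted threshold). Icam1, an adhesion molecule, rested on 4 and 22 UMIs. The both-antibody median of the list by replicate was 0.152, 0.159 and 0.028. It was 0.103 without replicate 2, 0.097 without replicate 3, 0.088 with cells of up to 60000 UMIs and 0.089 with equal numbers of cells per class drawn from both groups. On the control and both-antibody sums alone 18 genes of the list passed the low-count filter. Of these, 14 were higher, with a median of 0.101. Of the 20 genes, 16 had a promoter in the table and 43.8% of those held the κB-like letters, beside 29.7% of all promoters.

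**Figure D3:**
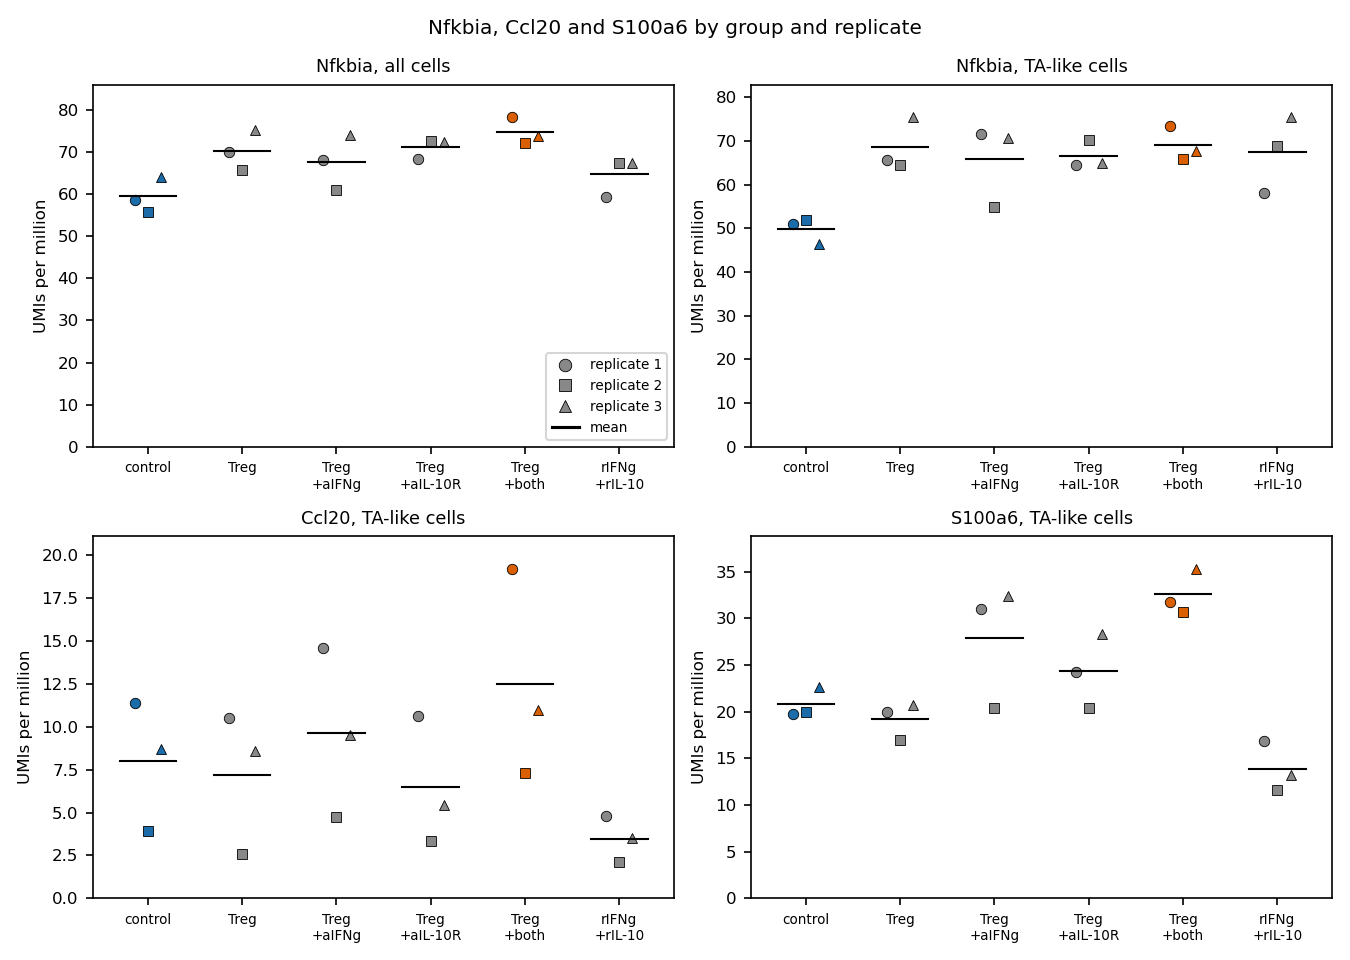
Levels of Nfkbia in all cells and of Nfkbia, Ccl20 and S100a6 in TA-like cells in CPM (vertical, from 0) for each culture (horizontal), with a point per replicate and a bar at their mean. In TA-like cells S100a6 lies at 30.7 to 35.3 CPM with both antibodies and at 19.8 to 22.7 CPM in control.

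Control cells were clustered to define classes, named from marker genes. Every cell, control cells included, was then assigned to the class whose profile it followed most closely. In control, 87 cells formed the secretory-like cluster and 63 cells were assigned to that class. Genes of the interferon core and antigen presentation lists were left out of the assignment but not of the clustering. Ifitm3, which is in neither list, was among the leading genes of both ISC-like clusters and took part in the assignment. The classes were intestinal stem cell (ISC)-like, transit-amplifying (TA)-like, enterocyte progenitor and enterocyte (EP/enterocyte)-like and secretory-like, plus a cluster led by Areg and S100a6 and another, cluster 10, led by Gdf15, which fit no marker list. When control cells of a replicate were assigned from profiles of the other replicates, 88.7% to 89.4% returned to their own class. The clusters and the assignment genes had been set with all replicates, so this check was only partly separate. It pooled all classes and covered control cells only.

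TA-like cells were the most numerous class, with 951 cells in control and 1047 with both antibodies. By edgeR 0 of 13402 genes were higher (0.0%) or lower (0.0%), with 351 higher and 240 lower at an unadjusted p under 0.05 and 1 gene, S100a6, higher by DESeq2. S100a6, a calcium-binding protein expressed in regenerating epithelium, was at 19.8, 20 and 22.7 CPM in control, 31.8, 30.7 and 35.3 CPM with both antibodies, and 20, 17 and 20.7 CPM with Treg cells alone. The both-antibody values lay above every other value named. The log2 change against control was 0.64 ± 0.10 (SE, n = 3; interval 0.43 to 0.85), and the edgeR adjusted p was 0.0577. Cells with a UMI of S100a6 were 44.3%, 30.2% and 40.0% in control and 43.8%, 37.6% and 39.5% with both antibodies, so detection overlapped while the summed level did not. The highest cell held 15, 48 and 19 UMIs in control and 49, 64 and 89 with both antibodies. In all cells, with only control and both-antibody sums fitted, the log2 change of S100a6 was 0.41 (interval -0.1 to 0.92, edgeR adjusted p = 0.806). S100a6 was also a leading gene of the Areg and S100a6 cluster. How far the division of cells between that cluster and TA-like cells entered this difference was not tested.

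Ccl20, a chemokine that draws CCR6+ lymphocytes, was at 11.4, 3.93 and 8.68 CPM in TA-like control cells, 19.2, 7.28 and 11 CPM with both antibodies, and 10.5, 2.59 and 8.56 CPM with Treg cells alone. It was higher with both antibodies within each replicate, although the groups overlapped across replicates (log2 change 0.68 ± 0.14, edgeR adjusted p = 0.364). In all cells, with only control and both-antibody sums fitted, Ccl20 had a log2 change of 0.34 with an interval of -1.31 to 1.98. Nfkbia in TA-like cells was at 51, 51.9 and 46.5 CPM in control and 73.4, 66 and 67.7 CPM with both antibodies, which did not overlap and did not pass the adjusted threshold (log2 change 0.46 ± 0.11, edgeR adjusted p = 0.851). Abcc4, an exporter of cyclic nucleotides, had a log2 change of 0.71 ± 0.17, and Cry1, a repressor of the circadian clock, one of -0.34 ± 0.09, neither past the adjusted threshold. Of 18 NF-κB and IL-17 targets tested in TA-like cells 14 were higher, 9 in 3 of 3 replicates, where 13.7% of all genes in the class were. The median was 0.13, and with Treg cells alone it was 0.075 against the shared control. In EP/enterocyte-like cells 4 of 13 were higher (median -0.024), and 3 were lower in 3 of 3 replicates, where 12.6% of all genes in that class were. In the Areg and S100a6 cluster 4 of 10 were higher (-0.044) and in secretory-like cells 7 of 9 (0.085). The STAT3 target list had 11 of 11 tested genes higher in TA-like cells, 4 in 3 of 3 replicates, with a median of 0.164 (0.092, 0.171 and 0.096 by replicate) and 0 called. With Treg cells alone the median of this list against the shared control was 0.189.

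Against Treg cells alone, TA-like cells with both antibodies had 8 genes higher (0.0597%) and 35 lower (0.261%). Among the higher genes were S100a6 (adjusted p = 7.07e-04), Ccl20 (adjusted p = 0.0016), Wwp1, Kcnq1ot1, Tln2, Abcc4 and 2200002D01Rik, by edgeR. Against control 5 of the 8 had an unadjusted edgeR p under 0.05, but both comparisons share the both-antibody samples. The 8 genes were picked as high in those samples, so neither this count nor the order of the cultures given next is separate support. For S100a6, Ccl20 and Abcc4 the both-antibody value was the highest of these cultures in 3 of 3 replicates. Wwp1, a ubiquitin ligase, was lower with Treg cells alone than in control (edgeR, adjusted p = 0.00421) and had a log2 change of -0.01 ± 0.05 with both antibodies. The 35 lower genes had a median log2 change of -0.01 against control with both antibodies and 0.85 with Treg cells alone, and 0 of them reached an unadjusted p under 0.05 against control. They were picked as low in the both-antibody samples against Treg cells alone, so these values are not separate support either.

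ISC-like cells made up 20.5%, 21.1% and 22.6% of control cells and 26.9%, 24.1% and 23.4% of both-antibody cells. The share was higher with both antibodies in 3 of 3 replicates, by 6.47, 2.95 and 0.806 percentage points, and the groups did not overlap. The exact sign-flip permutation test gave p = 0.25 and the exact unpaired one p = 0.1, the smallest each can give, and after adjustment over the 6 classes these were 0.75 and 0.6. With Treg cells alone the shares were 20.7%, 14.1% and 19.5%. The Areg and S100a6 cluster was lower in 3 of 3 replicates, with 6.21%, 8.76% and 6.67% in control and 5.76%, 6.60% and 4.15% with both antibodies, and these groups overlapped. TA-like cells (54.9%, 54.5% and 49.3% against 48.4%, 53% and 55.6%), EP/enterocyte-like cells (13.6%, 8.28% and 14.8% against 13.9%, 9.84% and 11.2%) and secretory-like cells (3.69%, 3.12% and 4.35% against 4.42%, 4.40% and 3.17%) lay on both sides among replicates, as did cluster 10 (1.17%, 4.2% and 2.32% against 0.536%, 2.08% and 2.44%).

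**Figure D4:**
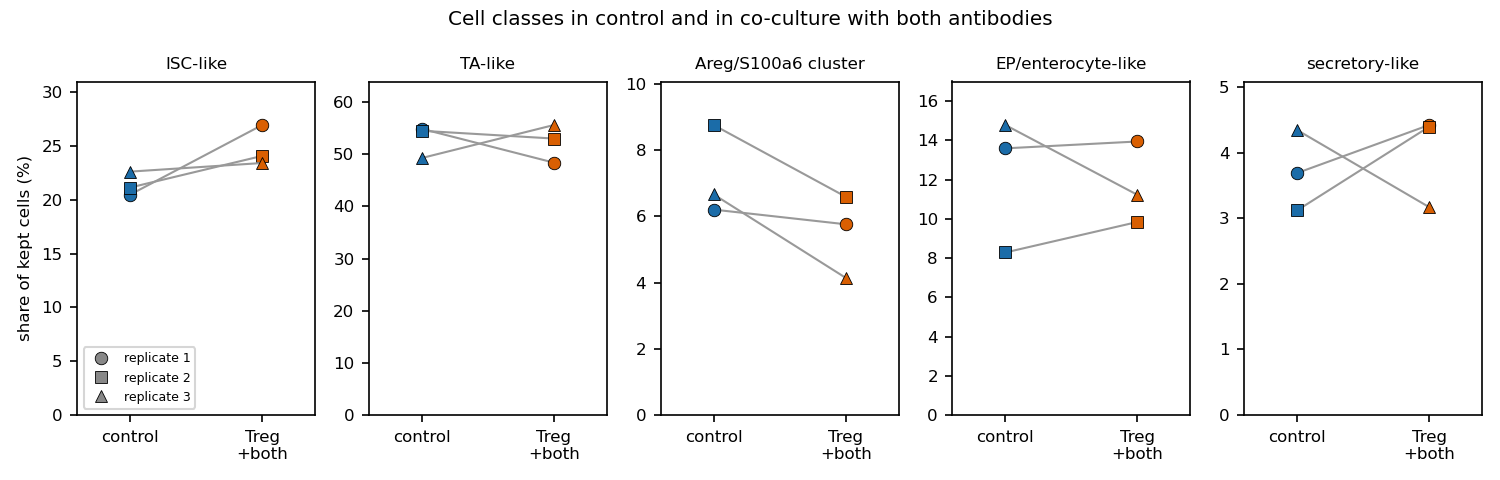
Share of cells in each class in percent (vertical) for control and both-antibody cultures (horizontal), with a point per replicate and lines joining the groups of a replicate. The ISC-like share is higher with both antibodies in 3 of 3 replicates, at 23.4% to 26.9% against 20.5% to 22.6%.

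Stem cell genes in all cells followed the same side. All 14 tested ISC markers of 15 were higher with both antibodies, 12 of them in 3 of 3 replicates, where 13.6% of all genes were. Their median log2 change was 0.124, and with Treg cells alone their median against the shared control was -0.162. None passed the adjusted threshold. Several of these genes also define the ISC-like class, and with equal numbers of cells per class the median was 0.061. Lgr5, the R-spondin receptor that marks ISC, was at 54.6, 69.4 and 39.4 CPM in control and 55.1, 72.4 and 51.5 CPM with both antibodies, and Olfm4, a secreted ISC marker, at 869, 998 and 1040 CPM and at 1180, 1020 and 1200 CPM. Values overlapped for both genes. Of 21 tested genes of the Wnt and stem cell list 19 were higher (median 0.086), among them Msi1, an RNA-binding protein of stem cells, at 10.2, 10.9 and 10.2 CPM in control and 14.1, 11.9 and 12.8 CPM with both antibodies, which did not overlap. In TA-like cells, 13 of 14 ISC markers were higher, with a median of 0.125, and 9 were so in 3 of 3 replicates, where 13.7% of all genes in the class were. This class joined several control clusters, whose mean standardized ISC marker level ran from -0.462 to 0.374. How far a shift of cells between these clusters entered the difference was not tested. The other classes were more divided. In ISC-like cells 8 of 14 were higher (median 0.036, 3 in 3 of 3 replicates) and in EP/enterocyte-like cells 4 of 10 (-0.063). The Areg and S100a6 cluster had 7 of 12 higher (0.129) and secretory-like cells 6 of 11 (0.335).

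Within ISC-like cells, 1 of 11612 genes was higher (0.00861%) and 0 were lower (0.0%) by edgeR, with 207 and 181 at an unadjusted p under 0.05 and 0 by DESeq2. The gene, Gm38405, had a log2 change of 5.65 ± 0.77 (edgeR, adjusted p = 5.89e-04), with 0, 0.137 and 0.341 CPM in control and 0.208, 18.4 and 2.8 CPM with both antibodies. Of its 147 UMIs in replicate 2 with both antibodies, 120 came from 1 cell, and without replicate 2 it was not called. Lgr5 and Olfm4 had log2 changes of 0.05 ± 0.16 and 0.11 ± 0.13 within the class. Of 17 NF-κB and IL-17 targets 15 were higher, with a median of 0.33 that split by replicate into 0.172, 0.536 and -0.049, beside -0.004 over all genes. With Treg cells alone the median of these targets against the shared control was -0.003. Cxcl1 was at 0.957, 0.687 and 1.7 CPM in control and 2.28, 3.26 and 1.96 CPM with both antibodies, which did not overlap, from 16 and 55 UMIs, and did not pass the adjusted threshold.

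Glycolytic genes stood lower in ISC-like cells with both antibodies than with Treg cells alone. Of the 23 genes lower there (0.198%, with 4 higher, 0.0344%), Pkm, Eno1, Tpi1, Ldha and Aldoa encode glycolytic enzymes, and Psme1, Psme2, Tapbp, Psmb10, Ifitm3 and Nlrc5 belong to the interferon response. Pkm, the last enzyme of glycolysis, was at 266, 603 and 491 CPM in control, 232, 548 and 486 CPM with both antibodies and 321, 741 and 593 CPM with Treg cells alone (edgeR, adjusted p = 0.0101 against Treg cells alone). Within each replicate the both-antibody value was the lowest and the Treg value the highest. Pkm was picked from the genes lower than with Treg cells alone, so this order is not separate support. Ldha, which makes lactate, was at 809, 1480 and 1270 CPM in control, 651, 1310 and 1300 CPM with both antibodies and 892, 1650 and 1490 CPM with Treg cells alone. The lower level was not particular to this class. Compared with Treg cells alone, the hypoxia and glycolysis list had a median of -0.318 in ISC-like, -0.264 in TA-like and -0.212 in secretory-like cells. It was -0.064 in EP/enterocyte-like cells, -0.056 in the Areg and S100a6 cluster and -0.292 in all cells. Against control, 4 of 28 hypoxia and glycolysis genes were higher in ISC-like cells, with a median of -0.108 and 0 past the adjusted threshold. By replicate this median was -0.282, -0.087 and 0.078, so replicate 3 lay on the other side. Lower in 3 of 3 replicates were 5 of the 28, where 12.5% of all genes in the class were. The 4 genes higher than with Treg cells alone were Apob, Gm38405, Tmem176a and Tmem176b. Apob, the main protein of chylomicrons, was at 28.2, 22.0 and 25.6 CPM in control, 35.0, 25.1 and 29.1 CPM with both antibodies and 25.4, 11.8 and 16.5 CPM with Treg cells alone.

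Secretory-like cells, a mixed class of goblet-like, Paneth-like and endocrine-like cells with 22, 26 and 15 cells in control and 33, 38 and 13 with both antibodies, had lower levels of a tubulin gene and lower values of cell-cycle genes. Of 9028 genes tested by edgeR 2 were lower (0.0222%) and 0 higher (0.0%), with 243 higher at an unadjusted p under 0.05, and DESeq2 called 8 genes, Dclk1 higher and Tuba1b, Birc5, Tubb4b, Sst, Cdk1, Top2a and H2afz lower. Tuba1b, an alpha tubulin, was at 72.6, 193 and 96.8 CPM in control and 37.4, 74.6 and 29.2 CPM with both antibodies (log2 change -1.29 ± 0.18, edgeR adjusted p = 0.00169), lower within each replicate, and it was not called without replicate 2 or without replicate 3. With Treg cells alone it was at 59.8, 103 and 60.6 CPM, between the other groups in each replicate. The other gene, 3110004A20Rik (edgeR, adjusted p = 0.0441), had its UMIs in 1 or 2 cells per control replicate. Tubb4b, a beta tubulin, was at 252, 409 and 387 CPM in control and 129, 227 and 172 CPM with both antibodies, which did not overlap (edgeR adjusted p = 0.0536).

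All 31 tested genes of the G2 and mitosis list were lower in secretory-like cells with both antibodies, 28 of them in 3 of 3 replicates, where 13.6% of all genes in the class were, and 23 at an unadjusted p under 0.05. Their median log2 change was -1.293, beside 0.001 over all genes, and by replicate -1.243, -0.761 and -3.099. None of the list passed the adjusted threshold by edgeR. Top2a, the topoisomerase that untangles chromosomes, was at 161, 143 and 76.4 CPM in control and 40.8, 94.7 and 9.75 CPM with both antibodies. Mki67, the proliferation marker, was at 114, 97.7 and 58.6 CPM in control and 52.1, 48.4 and 6.5 CPM with both antibodies, and Birc5, a mitotic survival factor, had a log2 change of -1.77. Mki67 values did not overlap and Top2a values did. Of 22 S phase genes 3 were higher (median -0.608).

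The number of cells behind this difference was small. Summed over the 34 genes of the list, secretory-like cells held 1840, 2160 and 1670 CPM in control and 749, 1280 and 171 CPM with both antibodies. After thinning to 10000 UMIs, 12 of 63 control cells (19.0%) and 5 of 84 both-antibody cells (5.95%) kept at least 20 UMIs of the list. In control the highest cell supplied 43.7%, 18.6% and 37.0% of the list's UMIs. With Treg cells alone the sums were 914, 769 and 499 CPM, and 7 of 107 cells (6.54%) reached 20 UMIs. Cells that did so were 8 of 79 (10.1%) with Treg_aIFNg and 17 of 115 (14.8%) with Treg_aIL10R. With the recombinant cytokines, without T cells, they were 27 of 200 (13.5%). The share in the same control was thus above that of every other group, not only the both-antibody culture. These shares pool cells over replicates. Of genes that mark the class itself, 9 secretory products summed to 63000, 91900 and 91800 CPM in control and 79600, 89200 and 90400 CPM with both antibodies. In TA-like cells the cell-cycle list summed to 5300, 5120 and 4950 CPM and 5540, 5080 and 5250 CPM. Because 29 of the list's genes also served to assign classes, how dividing secretory cells were divided between the secretory-like and TA-like classes was part of the measurement, and its share in the difference was not tested.

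EP/enterocyte-like cells, 201 in control and 235 with both antibodies, showed 0 higher (0.0%) and 0 lower (0.0%) of 10324 genes by edgeR, with 189 and 149 at an unadjusted p under 0.05 and 0 by DESeq2. Fkbp5, a glucocorticoid-responsive chaperone, was at 8.05, 5.14 and 5.16 CPM in control and 18.2, 11.2 and 13.7 CPM with both antibodies (log2 change 1.2 ± 0.29, edgeR adjusted p = 1), with no overlap between the groups. It also stood at 11.3, 5.26 and 10.8 CPM with Treg cells alone, between the groups in every replicate. Tox3 was at 12.6, 8.57 and 8.03 CPM in control and 17.1, 20.7 and 13.1 CPM with both antibodies, again without overlap. Of 21 dissociation and heat shock genes 0 were higher, and the median was -0.232, beside -0.004 over all genes. Of these, 10 were lower in 3 of 3 replicates, where 12.6% of all genes in the class were. With Treg cells alone the median of this list against the shared control was similar, at -0.205. Atf3, a stress-induced factor of that list, was at 126, 53.1 and 70.5 CPM in control and 33.0, 44.6 and 43.4 CPM with both antibodies. Of 23 antigen presentation genes 5 were higher, and 9 were lower in 3 of 3 replicates (median -0.172). These counts come from a fit whose low-count filter used all 6 groups, among them groups where interferon genes are high. Even in all cells only 20 of the list passed the filter on the compared groups alone. Some members may therefore rest on few UMIs here. Against Treg cells alone 16 genes were lower (0.155%), Psme1, Psme2 and Psmb10 among them, and 1 was higher (0.00969%), Ttr, the thyroid hormone carrier. A test of whether gene effects differed between TA-like and EP/enterocyte-like cells called 0 of 12731 genes by edgeR (0.0%), with 257 and 254 at an unadjusted p under 0.05 in either direction.

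The Areg and S100a6 cluster, 133 control and 117 both-antibody cells, had 0 higher (0.0%) and 0 lower (0.0%) of 9631 genes by edgeR, with 216 and 270 at an unadjusted p under 0.05 and 0 by DESeq2. Of 29 G2 and mitosis genes 26 were higher, 14 in 3 of 3 replicates, where 13.6% of all genes in the cluster were. The median was 0.366, the direction opposite to that in secretory-like cells, although the difference between the classes was not tested. With Treg cells alone the median against the shared control was 0.558. After thinning, 7 of 133 control, 8 of 117 both-antibody and 17 of 171 Treg cells of this cluster kept at least 20 UMIs of the list. Nap1l1, a histone chaperone, was at 64.6, 79.3 and 66.5 CPM in control and 108, 106 and 132 CPM with both antibodies, which did not overlap (edgeR adjusted p = 0.411). Of 5 goblet cell genes tested 0 were higher, and Fcgbp, a mucus protein, was at 184, 90.4 and 233 CPM in control and 23.8, 11.5 and 6.28 CPM with both antibodies. In each control replicate 1 cell supplied most of this, with 198 of 257, 202 of 237 and 178 of 196 UMIs.

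Among the remaining lists in all cells, 0 genes passed the adjusted threshold. Growth and metabolism lists lay near 0: mTORC1 signaling had 17 of 58 genes higher (median -0.018), Myc targets 10 of 38 (-0.025), cholesterol synthesis 5 of 25 (-0.025), ribosomal proteins 9 of 80 (-0.01), hypoxia and glycolysis 13 of 28 (-0.029), fatty acid oxidation and PPAR targets 4 of 25 (-0.047), and solute carriers 11 of 28 (-0.015). Myc itself was at 70.8, 78.9 and 70.6 CPM in control and 64.5, 72.0 and 77.5 CPM with both antibodies, with an interval of -0.17 to 0.06 from the fit of these groups only. The side of these medians depended on the replicates. Without replicate 2 mTORC1 signaling had 32 of 58 genes higher (median 0.016), Myc targets 23 of 38 (0.011) and cholesterol synthesis 15 of 25 (0.006), and without replicate 3 the medians of these lists were -0.066, -0.074 and -0.099. Without replicate 1, 32 of 80 ribosomal protein genes were higher. Of the 32 lists with at least 12 tested genes, 19 had a median that changed sign when 1 replicate was left out.

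Lists of other signals held no called gene in all cells either. STAT3 targets, which would include the response to IL-10, had 9 of 12 higher with a median of 0.061 that was 0.001 without replicate 2 and 0.142 without replicate 3, 4 of 11 higher in EP/enterocyte-like cells (median -0.162), 2 of 8 in the Areg and S100a6 cluster (-0.248) and 5 of 6 in secretory-like cells (0.614). Socs3, the feedback inhibitor that Stat3 induces, was at 2.83, 2.49 and 2.2 CPM in control and 2.29, 2.47 and 2.35 CPM with both antibodies, which overlapped. YAP and fetal-like repair genes had 10 of 14 higher (median 0.115), p53 targets 14 of 22 (0.052), STAT6 targets 7 of 9 (0.08), TGF-β and BMP targets 9 of 15 (0.029), EGFR and ERK targets 10 of 21 (-0.032), Notch and secretory fate genes 6 of 17 (-0.027), and cytokine receptors and kinases 11 of 18 (0.035). Stress lists read -0.012 for the unfolded protein response (9 of 22 higher), -0.003 for ATF4 and the amino acid response (13 of 27), -0.004 for NRF2 targets (9 of 21) and -0.084 for dissociation and heat shock (1 of 23). In the last list 3 genes were lower in 3 of 3 replicates, where 13.4% of all genes were.

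Cell cycle and lineage lists over all cells completed the comparison. G2 and mitosis genes had 23 of 34 higher (median 0.021), S phase genes 14 of 33 (-0.009) and TA markers 9 of 15 (0.011). EP markers had 3 of 15 higher with a median of -0.074 and enterocyte markers 7 of 20 with -0.057. Without replicate 3 these were 5 of 15 (-0.015) and 11 of 20 (0.02), and with equal numbers of cells per class the medians were -0.017 and -0.018. Goblet markers had 9 of 15 higher (0.068), Paneth markers 6 of 14 (-0.077), endocrine markers 8 of 18 (-0.054) and mitochondrial transcripts 7 of 13 (0.002). Muc2, the main gel-forming mucin, was at 11.2, 16.9 and 27.6 CPM in control and 18.3, 27.5 and 9.48 CPM with both antibodies, and Lyz1, the lysozyme of Paneth cells, at 57.6, 63.1 and 154 CPM and at 45.4, 85.3 and 64.9 CPM, so that the order of the groups changed between replicates.

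**Figure D5:**
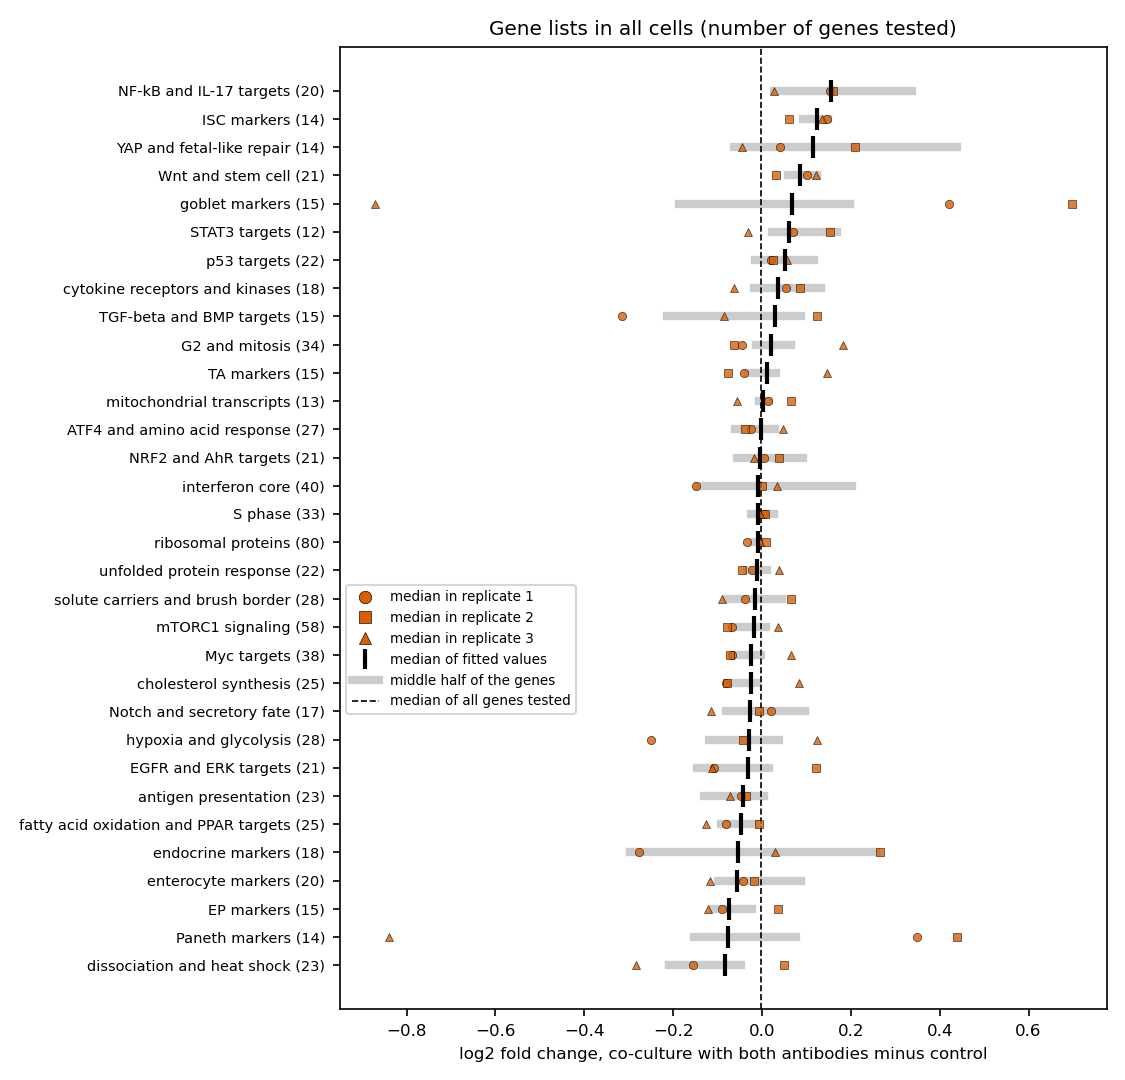
Log2 fold change in all cells, both-antibody co-culture minus control (horizontal), for each list with at least 12 tested genes (vertical), with the median of the fitted values as a black tick, the interquartile range of the genes as a grey bar, the median within each replicate as a point, and the median of all genes as a dashed line. The interferon core list lies at -0.009 and antigen presentation at -0.043, and the goblet and Paneth lists have the widest spread between replicates.

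Genes with the next smallest p in all cells had low or moderate levels and none passed the adjusted threshold. Abcc4 was at 6.07, 3.42 and 2.68 CPM in control and 9.45, 5.99 and 4.15 CPM with both antibodies (log2 change 0.69 ± 0.15), higher in 3 of 3 replicates with overlapping groups, and at 4.68, 3.59 and 2.94 CPM with Treg cells alone. BC049715 was at 1.75, 1.07 and 1.1 CPM and at 0.816, 0.407 and 0.505 CPM (log2 change -1.18 ± 0.25), and Cry1 at 20.8, 19.4 and 17.2 CPM and at 16.8, 15.8 and 15 CPM (log2 change -0.27 ± 0.07). For these last genes every both-antibody value lay below every control value. Pdk4, a brake on glucose oxidation chosen after its values were seen, had 42 UMIs in control and 14 with both antibodies (log2 change -1.74 ± 0.45), also short of the adjusted threshold.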

How the data were processed

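Single-cell libraries of hashed organoid cells (Chromium 3' chemistry) were counted by the authors with Cell Ranger 7.0.0 against GRCm38 (mm10), and the deposited values are raw UMI counts per gene and barcode, and per hashtag. Here, hashtag singlets were called per library with HTODemux (Seurat 5.3.0, positive quantile 0.99), which removed 3387 doublets and 8278 negatives of 35985 barcodes. No further doublet caller was run. The filters were a UMI total from 10000 to 90000, a gene number from 3000 to 10000, and a mitochondrial share of UMIs up to 8.5%. A further library that the study had set aside was not used here.

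UMIs were summed per group and replicate, over all cells or per class where every sum had at least 10 cells, and tested with edgeR 4.0.16 (TMM, low-count filter, robust quasi-likelihood) in a fit of all 6 groups (18 sums) with replicate as a block. DESeq2 1.42.0 was an alternative. Deviations from the group mean correlated between same-numbered sums in all cells (0.323 to 0.529). The values between other sums (-0.307 to -0.0469) add nothing separate, because the deviations of a group sum to 0. Sums of a replicate shared libraries as well as the experiment, which the correlation cannot tell apart. The numbers, which the libraries' experiments gave, pair the sums. In secretory-like cells the same-numbered correlations were 0.0921 to 0.156.

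Control cells were clustered with scanpy 1.11.5 (Leiden, resolution 1), and all cells, control included, were assigned by Spearman correlation over 461 genes. Enterocyte progenitor and enterocyte markers led the same cluster, as did goblet, Paneth and endocrine markers, so these classes were tested jointly. The members, gene lists and naming rule were chosen with earlier results of these data known. The rule named genes past the threshold, otherwise the 5 with the smallest p per direction, and fixed anchor genes such as Irf1 and Lgr5. Cxcl1, Icam1, Msi1, Top2a, Birc5, Tubb4b, Fcgbp, Atf3 and Pdk4 were named after their values were seen. Intervals of shares and counts of UMIs cover counting error only. On counts simulated for the all-cells comparison, the edgeR test called 53.1% of genes changed 1.5-fold and 66.3% of those changed 2-fold. Of the genes it called there, 3.36% were false. Results for some genes are not reported here.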

Additional observations from a re-analysis of the deposited data

How the results depend on the processing

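The all-cells result kept its count of 0 genes in either direction under 7 of 9 other settings and under each omission of a replicate, and libraries as separate sums or DESeq2 each called 1 gene, Nfkbia. In the fit with no replicate block the co-culture against Treg cells alone gave 6 genes, 6 of them lower, the ISC-like and secretory-like classes gave 0 each, and the all-cells count stayed at 0. With the 2 compared groups only, the calls were 2 in ISC-like cells, 4 in TA-like cells (S100a6, Nfkbia, Ccl20 and Kcnq1ot1), 12 in the Areg and S100a6 cluster, 7 in EP/enterocyte-like and 0 in secretory-like cells. DESeq2 called 0, 1 (S100a6), 0, 0 and 8 in the same order. With no low-count filter the counts were 45, 64, 50, 31 and 85, and in those fits edgeR's prior degrees of freedom were infinite for 100% of genes. Leaving out a replicate gave 0 to 156 calls against Treg cells alone (0 to 97 lower, 0 to 59 higher), 1 to 3 in the Areg and S100a6 cluster, 0 to 2 in secretory-like, 0 to 3 in TA-like and 0 to 1 in ISC-like cells, and 0 to 1 for the difference between TA-like and EP/enterocyte-like effects. Mean share differences ran from 1.88 (without replicate 1) to 4.71 points for ISC-like (3.41 with all replicates), from -3.98 to 2.42 points for TA-like, -1.61 to 0.953 for EP/enterocyte-like and -0.222 to 1 for secretory-like cells, the last being -0.0621 at the stricter hashtag quantile, and from -3.1 to 0.434 for interferon-positive cells. Against Treg cells alone that difference was -15.7 points at a minimum of 5 UMIs. The cause of these shifts was not tested. Of 559 alternative log2 changes of 47 named genes, 557 stayed on the same side of the threshold and 2, both of Nfkbia, passed it. Among them 19 moved by more than 1 SD and 31, in 18 genes, changed sign. In the classes, the interval of the fold change lay within 1.5-fold for 74.3% of genes in TA-like but 22.6% in secretory-like cells.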

Other observations

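Tuft cell genes rested on a few cells. Dclk1, a marker of these chemosensory cells, had UMIs in 1, 1 and 4 control cells and in 3, 1 and 1 both-antibody cells. In replicate 1 with both antibodies 128 of its 130 UMIs came from 1 cell, and in control replicate 3 96 of 140 did. The tuft list of 10 tested genes accordingly had replicate medians of 2.378, -0.006 and -3.057 on the log2 scale, around a median of -0.644, with 0 genes higher and 0 called.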
